A study of Mus musculus with 4 samples.

Results

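The cells described here are the Pax2 positive immature interneurons of the postnatal mouse cerebellum, 1527 of the 42576 cells kept from 4 single-cell libraries, or 3.59%. A cell was kept when it had at least 500 detected genes and at most 20% of its UMIs (unique molecular identifiers, each marking a captured RNA molecule) from mitochondrial genes. A kept cell was a member when it had at least 1 UMI of Pax2, a UMI of at least 2 of the 6 genes Gad1, Gad2, Slc32a1, Tfap2b, Slc6a5 and Lhx5, and no UMI of Atoh1 (granule cell progenitors), C1qa (microglia), Cldn5 (endothelium) or Aqp4 (astroglia). The 4 libraries are wild type (WT) and conditional knockout (cKO) mice at postnatal days 10 and 14 (P10, P14). Sets of 4 values below run through the P10 libraries (WT, then cKO) and then the P14 ones in the same order. The rule gave 196, 565, 327 and 439 members.

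Pax2 is a paired-box transcription factor switched on in inhibitory interneuron precursors of the cerebellum around their last division. These precursors descend from Ptf1a-expressing progenitors of the ventricular zone, keep dividing in the prospective white matter after birth, and migrate outward to become Golgi cells and, later, the basket and stellate cells of the molecular layer. Pax2 declines as the cells mature, while the GABA-synthesising enzymes Gad1 and Gad2 and the vesicular transporter Slc32a1 mark their inhibitory identity.

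Whole cerebella were freed of meninges, trypsinised and run on the 10x Chromium platform, and each of the 4 groups was 1 library. The cKO mice lack Eftud2 conditionally; its product is a U5 snRNP GTPase that helps activate the spliceosome. The series title places the deletion in Purkinje cells, and the labels used here give no Cre driver, deleted exon, sex or number of animals.

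The libraries held 6719 to 16691 barcodes and 91091692 to 158017834 UMIs, with a median of 7838 to 12347 UMIs per kept cell. Per the file headers, Cell Ranger 5.0.0 made the P10 WT matrix, 7.0.1 that of P10 cKO, and 7.1.0 the P14 matrices. In members, the longest-intron group of 5 equal gene groups took 12.1% of UMIs in P10 WT against 36.8%, 36.3% and 36.1% in the other libraries. Every comparison that involves P10 WT therefore carries a difference in program version and in the share of intron-rich genes, which cannot be told apart from genotype or age. Of the kept cells, 212 barcodes were shared between pairs of libraries, and none of these pairs joined 2 members. With 1 library per group, no p-value was computed at a single age, and the 95% intervals below cover counting error only.

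**Figure D1:**
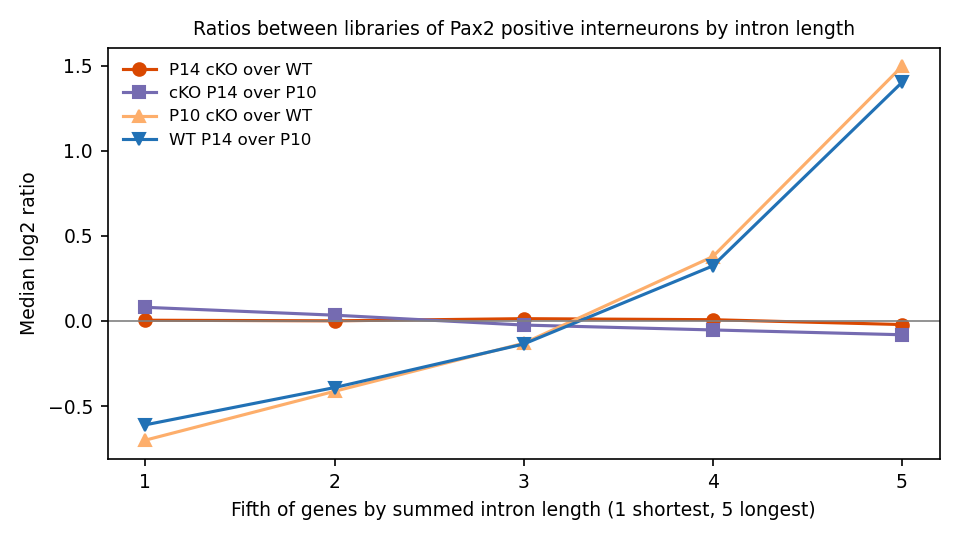
Median log2 ratio of gene levels between libraries of Pax2 positive interneurons (y axis) for 5 equal groups of genes ordered by summed intron length (x axis, 1 shortest to 5 longest), with 1 line per pair of libraries. The lines that involve P10 WT run from -0.70 and -0.61 in the shortest group to 1.496 and 1.40 in the longest, while P14 cKO over WT stays between -0.02 and 0.01 and cKO P14 over P10 between -0.08 and 0.08.

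Eftud2 itself (chromosome 11, 102838473 to 102880985, minus strand, GRCm38) was read in members at 49.8 CPM (the gene's UMIs summed over the cells and scaled to a common total of UMIs), 56.4, 45.7 and 59.4 CPM. Its level was thus not lower in either cKO library, and the P14 log2 ratio of cKO over WT was 0.37 (0.08 to 0.69). In all other cells together (here and below, without the cells that met the rule but for Pax2) it was 52.2, 55.5, 47.3 and 44.0 CPM. Since the deleted exon is not given in the sources used here and UMIs anywhere in the gene are counted, these levels do not check the genotype labels.

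The values that chose the members are given as a description. Pax2 (chromosome 19, 44756045 to 44837871, plus strand) reached 290, 741, 529 and 587 CPM in members, against 4.6, 13.1, 2.55 and 16.6 CPM in all other cells. The median member had 2, 8, 3 and 7 Pax2 UMIs in the same order, so P10 WT members were the lowest on both measures. Gad1 was at 109, 425, 547 and 516 CPM and Gad2 at 97.6, 247, 381 and 358, again lowest in P10 WT, whereas the transcription factors Tfap2b (256, 304, 286 and 304 CPM) and Lhx5 (179, 163, 148 and 165 CPM) were nearly level across libraries. Slc6a5, the glycine transporter of glycinergic terminals, was at 28.8 CPM in P10 WT and between 198 and 236 CPM in the other libraries. At least 4 of the 6 inhibitory genes were present in 85, 437, 251 and 370 members.

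A few cells of another type also carried a Pax2 UMI. With every cell thinned to 2000 UMIs, a Pax2 UMI was found in 44.6%, 74.9%, 64.3% and 60.8% of members with that depth, and in 0.472%, 0.974%, 0.393% and 1.62% of microglia (median depth before thinning 7523.5, 11106, 7542 and 13359 UMIs in members and 7251, 11178, 8898.5 and 15573 in microglia). The member shares are a description, since the rule required a Pax2 UMI, and the source of the microglial UMIs was not tested. At the edge of the rule, members with exactly 1 Pax2 UMI numbered 67, 31, 67 and 42, and their Gad1 levels were 105, 373, 713 and 634 CPM. Just outside it, 34, 16, 7 and 14 cells had Pax2 but only 1 of the 6 inhibitory genes. Their Neurod1, a granule neuron transcription factor, was at 1156, 1405, 921 and 566 CPM. A further 154, 85, 62 and 122 cells met every other condition but carried a UMI of an excluded gene.

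Genes outside the rule with the highest levels relative to other cells included several regulators of inhibitory neurons. Of 5532 genes with at least 20 CPM in the members of all 4 libraries, 172 were past 2-fold above all other cells in every library and 20 past 8-fold. These are descriptions, since the members were chosen on RNA levels, and the ranking was made after the values were seen. The other cells leave out the inhibitory cells without a Pax2 UMI, so the ranking does not show whether a gene is also high in those. Against those cells, none of the lineage transcription factors tested was called higher in members. At the top stood Skor1, a transcriptional corepressor of inhibitory neurons, with 144, 129, 133 and 149 CPM against 0.851 to 4.85 CPM in other cells, followed by the transcription factors Tfap2a (160, 214, 175 and 221 CPM) and Lbx1 (124, 89.2, 113 and 107 CPM). Skor1 and Lbx1 varied little between libraries, while Crabp1, a retinoic acid binding protein, ran from 171 CPM in P10 WT to 44.9 CPM in P14 WT. Nanos1, an RNA-binding translational repressor, was at 326, 232, 220 and 258 CPM, and the potassium channel gene Kcna2 at 342, 253, 256 and 340 CPM. Pnoc, the precursor of the neuropeptide nociceptin, was at 47.3, 45.7, 72.2 and 65.9 CPM.

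**Figure D2:**
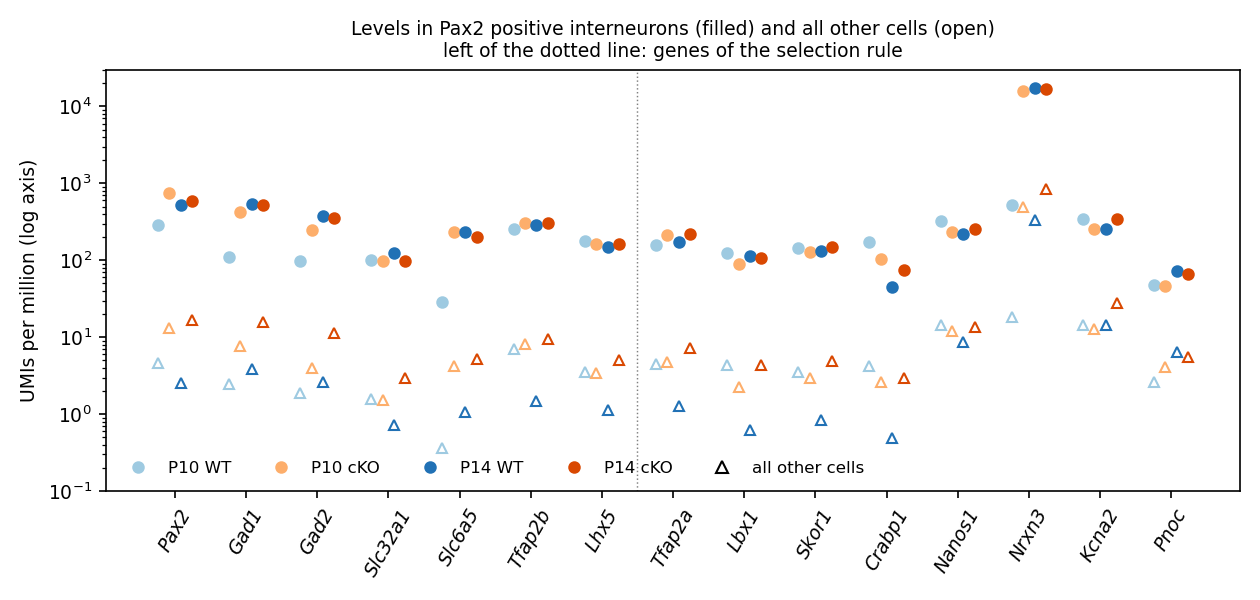
Level of 15 genes in Pax2 positive interneurons (filled circles) and in all other cells (open triangles) of each library, in CPM on a log axis, with the 7 genes of the selection rule left of the dotted line. The other cells leave out the inhibitory cells without a Pax2 UMI. For every gene the 4 filled points lie above the 4 open ones, as for Lbx1 (89.2 to 124 against 0.626 to 4.37) and Nanos1 (220 to 326 against 8.79 to 14.5), with the exception of Nrxn3, whose P10 WT member level (532) lies among the other-cell levels (18.6 to 858).

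Early neuronal genes were present in members, and markers of adult interneurons were mixed. Dcx, which binds the microtubules of migrating neurons, was at 635, 656, 754 and 794 CPM, against 82.7, 69.1, 94.1 and 98.8 CPM in microglia. Such genes were not particular to members. A list of 20 immature neuron genes summed to 31555, 19458, 21131 and 20547 CPM in members. It summed to 28060, 16393, 18037 and 17831 CPM in the inhibitory cells without a Pax2 UMI. In all other cells the sums were 16889, 16627, 17284 and 14776 CPM. Kit, the receptor of molecular layer interneurons, was at 87.3, 146, 203 and 196 CPM. The parvalbumin gene Pvalb of adult basket and stellate cells did not exceed 5.65 CPM in any library, and the Golgi cell receptor gene Grm2 did not exceed 1.12 CPM. The 14 molecular layer interneuron genes nevertheless summed to 670, 9440, 10931 and 9385 CPM in members against 216, 1455, 1225 and 1503 CPM in other cells, and the 11 Golgi genes to 58.6, 323, 314 and 274 against 37.4, 245, 207 and 245 CPM. Rora, a nuclear receptor of Purkinje cells and molecular layer interneurons, took 113, 8464, 9799 and 8193 CPM of the first sum, and Slc6a5, a gene of the rule, took 28.8, 236, 233 and 198 CPM of the second. The 11 Purkinje markers, which include Rora, summed to 196, 8643, 9914 and 8417 CPM in members against 131, 879, 724 and 912 CPM in other cells. Of the other Purkinje markers, Ppp1r17 and Skor2 were at 0 in the members of all 4 libraries and Pcp2 and Calb1 at most at 0.514 CPM, while Foxp2 reached 107 and Itpr1 71.6 CPM.

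RNA of markers of other cell types was present in members. The 16 granule lineage markers summed to 6374, 4795, 4110 and 4152 CPM in members, against 3464, 5155, 4432 and 4048 CPM in all other cells. Members were thus well above the other cells in P10 WT and near them in the remaining libraries. Neurod1 alone was at 1101, 540, 432 and 367 CPM in members, 390, 188, 229 and 217 CPM in microglia and 1526 to 1830 CPM in granule lineage cells. UMIs of at least 2 of 5 granule lineage genes (Barhl1, Neurod1, Pax6, Zic2, Cbln3) were found in 164, 426, 206 and 366 members, so results are also given without those cells where they differ. Astroglial markers summed to 321 to 511 CPM in members against 2051 to 6015 CPM in other cells, and microglial markers to 32.6 to 127 against 1182 to 4664 CPM. Red blood cell RNA stood out in P10 WT (4079 CPM against 15.9 to 73.0 in the other libraries), and choroid plexus RNA in P14 WT (1181 CPM against 4.15 to 12.3). Doublets by Scrublet score numbered 2, 34, 31 and 31 members (1.02%, 6.02%, 9.48% and 7.06%), against 3.96%, 2.34%, 3.23% and 2.20% of other cells. The doublet share of members was thus lower than that of other cells in P10 WT and higher in the remaining libraries.

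Members made up a larger share of the cKO libraries at both ages. At P10 they were 1.37% of kept cells in WT (1.19 to 1.58) and 8.57% in cKO (7.90 to 9.27), a cKO over WT ratio of 6.24 (5.30 to 7.38). This ratio involves P10 WT, with its difference in program version and intron content. The rule counts UMIs of genes that were lower in P10 WT members, such as Pax2 (median 2 UMIs against 8 in P10 cKO). The part of this in the P10 ratio was not tested and cannot be told apart from genotype. At P14 the shares were 2.12% (1.90 to 2.36) in WT and 6.96% (6.34 to 7.62) in cKO, a ratio of 3.28 (2.83 to 3.79). After thinning every cell to 2000 UMIs and applying the rule to the thinned counts, 176 of 14298 P14 WT cells (1.23%) and 243 of 5577 P14 cKO cells (4.36%) qualified, and the ratio was 3.54 (2.90 to 4.32). The lowest cKO share therefore lay above the highest WT share before and after thinning, without a test, as each value is 1 library. The excluded genes bore unevenly on these shares. At P10 they left out 154 WT and 85 cKO cells that met every other condition, beside 196 and 565 members. At P14 it was 62 and 122 cells, beside 327 and 439 members. Shares that include those cells were not computed.

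The size of the ratio at P14 moved with the removal of members that held granule RNA and with the denominator. Without members that had UMIs of 2 or more granule lineage genes, 121 members remained in P14 WT and 73 in P14 cKO. Over all kept cells the P14 ratio was then 1.47 (1.09 to 1.98), while the P10 ratio rose from 6.24 to 9.41. A deeper cell is removed more easily, and the median member had 7542 UMIs in P14 WT and 13359 in P14 cKO. The parts of granule RNA and of depth in the result were not tested. Among cells that met the inhibitory part of the rule, with or without Pax2, the Pax2 positive share was 71.0%, 92.8%, 80.9% and 90.5%. At P14 the exact intervals of the share were 76.8% to 84.7% in WT and 87.6% to 93.0% in cKO, and the ratio was 1.12. Cells with UMIs of Neurod1, Pax6 and Zic1 (granule lineage cells) numbered 6358, 4579, 10194 and 3499, and a share of captured cells cannot tell more interneurons from fewer cells of other types.

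**Figure D3:**
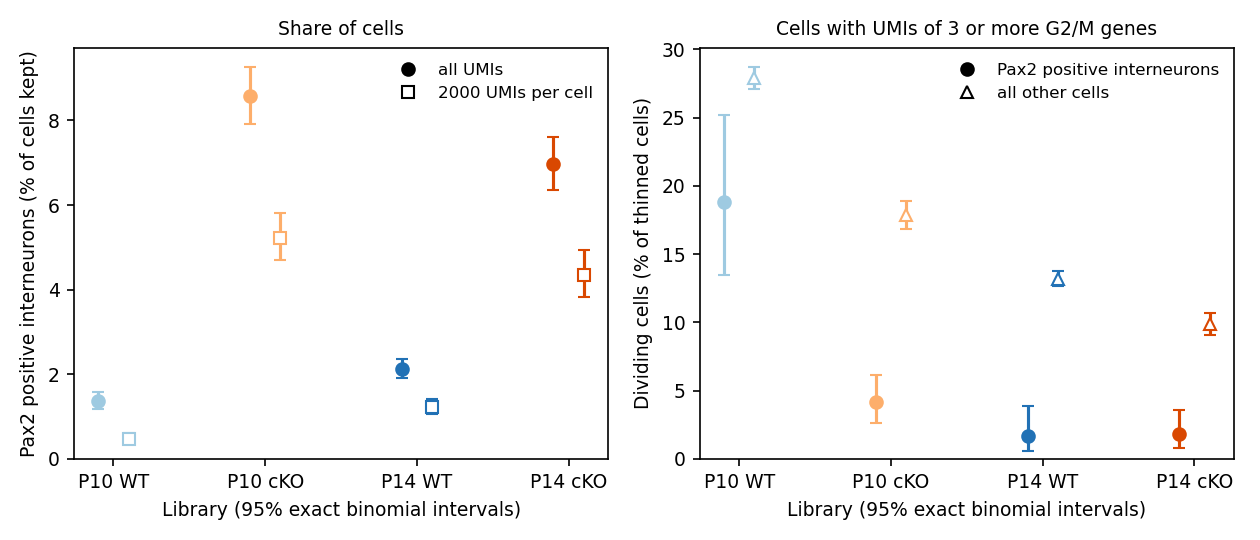
Left, share of kept cells that were Pax2 positive interneurons in each library, with all UMIs (filled circles) and with 2000 UMIs per cell (open squares). Right, share of dividing cells among Pax2 positive interneurons (filled circles) and all other cells (open triangles), both as percent with 95% exact binomial intervals; on the left the cKO libraries (8.57% and 6.96%) lie above WT (1.37% and 2.12%), and on the right members lie below other cells in all 4 libraries.

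Some members were dividing, most of them at P10. A cell was called dividing when it had UMIs of at least 3 of 16 G2 and M phase genes (such as Mki67 and Top2a) after thinning to 2000 UMIs. By this measure 35 of 186 members divided in P10 WT (18.8%, 13.5 to 25.2) and 23 of 553 in P10 cKO (4.16%, 2.65 to 6.18). At P14 it was 5 of 300 in WT (1.67%, 0.543 to 3.85) and 8 of 436 in cKO (1.83%, 0.795 to 3.58). The other cells of the same libraries gave 27.9%, 17.8%, 13.2% and 9.86%. Members were thus below the other cells in every library, and the intervals of the P14 libraries overlapped.

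Dividing members had lower levels of Pax2 and Gad1, both genes of the rule, and were deeper than the rest. Their median depth was 15864 against 7102, 20605 against 11043, 20349 against 7732 and 26424.5 against 13336 UMIs. Since the rule asks for UMIs of these genes whatever the depth, a deeper cell passes it at a lower level, and the part of depth in these levels was not tested. Pax2 was at 168 CPM in dividing members against 338 in the rest, then at 323 against 774, 404 against 526 and 309 against 597 CPM. Gad1 was at 28.5 against 133, 91.2 against 453, 126 against 557 and 54.0 against 533 CPM. Both genes were lower in the dividing members of 4 of 4 libraries, as were Slc32a1, Kit and Dcx. Tfap2b went the other way in both cKO libraries, at 235 against 264, 326 against 302, 206 against 287 and 688 against 290 CPM.

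Some genes of progenitors were higher in the same cells; they were chosen after their values were seen. The cell cycle gene Ccnd2 was at 1381 against 706, 1101 against 435, 978 against 179 and 1075 against 209 CPM. Sox2, a neural stem cell factor, was at 119 against 53.1, 84.2 against 35.1, 62.8 against 27.4 and 260 against 39.2 CPM. Prdm13, which acts with Ptf1a in inhibitory specification, was at 92.2 against 56.1, 80.7 against 29.9, 71.8 against 15.9 and 123 against 30.9 CPM, so all 3 genes were higher in the dividing members of every library. Ptf1a was lower in the dividing members of P10 WT and higher in those of the other libraries, at 3.35 against 12.7, 19.3 against 1.51, 8.97 against 1.19 and 19.6 against 4.84 CPM. No test was run on this split, and the P14 values rest on 5 and 8 dividing cells.

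**Figure D4:**
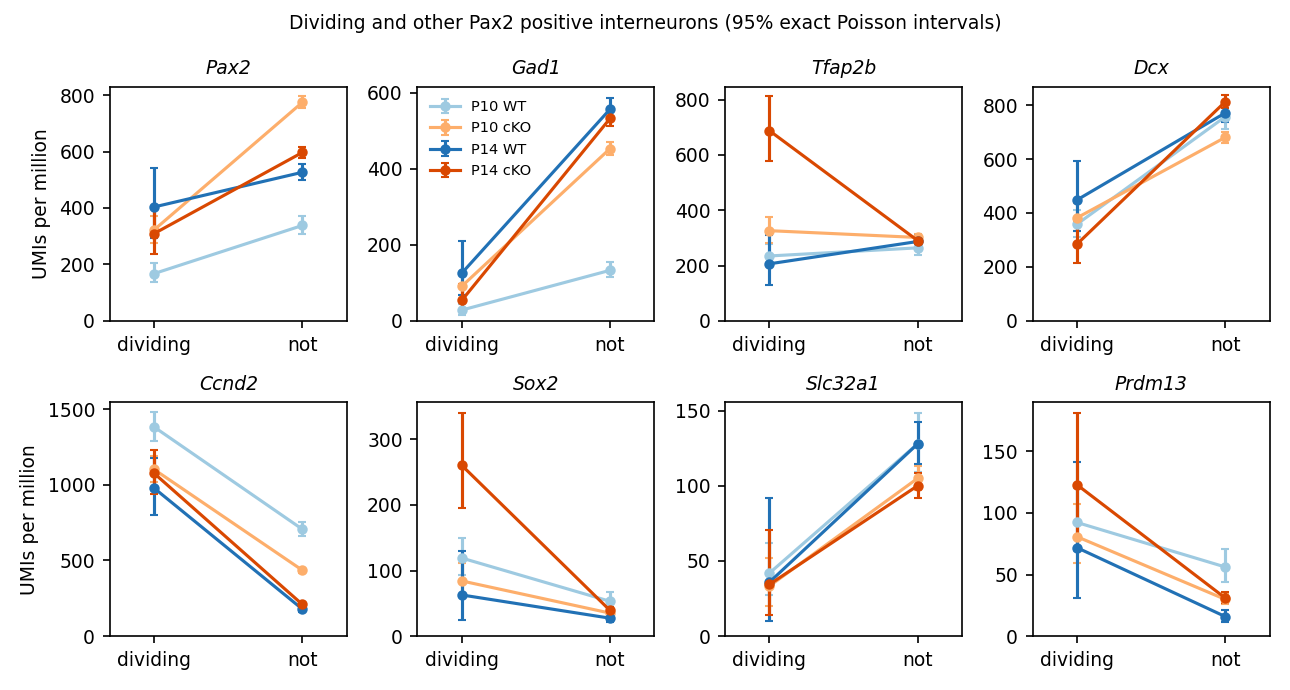
Levels of 8 genes, in CPM with 95% exact Poisson intervals, in dividing (left) and other (right) Pax2 positive interneurons, with 1 line per library. Pax2, Gad1 and Dcx are higher on the right in all 4 libraries, and Ccnd2, Sox2 and Prdm13 on the left.

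To ask what accompanied Pax2 among inhibitory cells, members were compared with the 247 cells (80, 44, 77 and 46 per library) that met the same rule but had no Pax2 UMI. Members had higher levels of the neuronal genes Sox11, Nanos1 and Megf11, and the cells without a Pax2 UMI had higher levels of the glial and progenitor genes Fabp7 and Vim. Neuronal genes were also among those lower in members, such as Cntn4 (log2 fold change -2.20), Grin3a (-1.81) and Cdh10 (-1.19). In edgeR's quasi-likelihood test with the library as a block and Benjamini-Hochberg adjustment, 74 of 11218 genes differed (0.66%), of which 18 were higher in members (0.16%) and 56 lower (0.499%). The difference had the same sign in all 4 libraries for 72 of them. The cells without Pax2 UMIs had median depths of 6809, 12068, 3553 and 12100 UMIs, so at P14 WT they were shallower than members (7542). With every cell thinned to 2000 UMIs, 62 of 6039 genes were called, of which 22 were among the 74. Of the 34 called genes with values under the alternatives, 14 of the 25 that could be fitted in thinned cells lost the call. With at least 3 inhibitory genes required, 21 of 33 lost it and 2 more changed sign. Without cells that had UMIs of 2 or more granule lineage genes, none of the 19 that could be fitted kept it: 18 lost it and 1 changed sign. That setting left only 25, 9, 47 and 17 cells without a Pax2 UMI. The loss of calls under it therefore cannot be told apart from the loss of cells. Without the block no gene passed (314 at an unadjusted p under 0.05).

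Among the genes higher in members, Nanos1 was at 326, 232, 220 and 258 CPM in members and 224, 104, 104 and 109 CPM in the cells without Pax2. It was higher in 4 of 4 libraries, which was also a condition for naming it. Its edgeR log2 fold change was 0.98 ± 0.15 (SE), with an adjusted p of 0.0205. Leaving out 1 library at a time gave adjusted p-values of 0.0293 to 0.0792, the highest without P14 cKO. Sox11, a transcription factor of newborn neurons, was at 4025, 2867, 2690 and 2872 CPM in members and 2857, 1867, 1535 and 1549 CPM in the others. Its log2 fold change was 0.70, with an edgeR adjusted p of 0.0278 that ran from 0.0418 to 0.169 over the leave-outs and was highest without P14 cKO. Megf11, a cell surface protein that spaces neurons in the retina, was at 227, 1323, 752 and 866 CPM against 156, 378, 341 and 168, with a log2 fold change of 1.47 and an edgeR adjusted p of 0.0276 (0.0293 to 0.0755 over the leave-outs, highest without P14 cKO). All 3 genes lost the call when P14 cKO was left out, Megf11 and Sox11 also without P10 cKO (0.0515 and 0.0542) and Sox11 also without P10 WT (0.104). Nanos1 also lost it in thinned cells (0.0874), and Nanos1 and Sox11 with at least 3 inhibitory genes (0.187 and 0.168), while Megf11 kept it there (0.0087). Without granule lineage RNA, Nanos1, Sox11 and Megf11 all lost the call (edgeR adjusted p 0.817, 0.718 and 0.588), at log2 fold changes of 0.48, 0.70 and 1.24.

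Further genes were higher in members in 4 of 4 libraries, again a condition for naming them. They were the guidance ligand Sema3c (log2 fold change 1.31), the orphan receptor kinase Ror1 (1.22), the acid-sensing channel gene Asic1 (1.22), Tbc1d30 (1.04) and the cortactin-binding Cttnbp2 (0.82). Their edgeR adjusted p-values were 0.0262, 0.0175, 0.0338, 0.0175 and 0.0469, and each lost the call without P14 cKO and without P10 WT, with highest leave-out values of 0.0918, 0.0792, 0.133, 0.0834 and 0.189. Igfbp5 (1.51, adjusted p 0.0486) lost it when the highest cell of each library was removed (0.0559), without doublets (0.0527), with at least 3 inhibitory genes (0.595), in thinned cells (0.597), and without P10 WT, P10 cKO or P14 cKO (0.120, 0.0847 and 0.117). Gm20395, with 0.514, 24.9, 13.9 and 20.0 CPM in members and no UMI in the other cells, lies antisense within Pax2. Whether its UMIs came from Pax2 RNA was not tested.

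Among the genes lower in members, Fabp7 (chromosome 10, 57784881 to 57788450, plus strand), a fatty acid binding protein of radial glia and progenitors, was at 38.0, 22.8, 22.1 and 29.0 CPM in members and 128, 135, 126 and 74.7 CPM in the cells without Pax2. The difference was present in 4 of 4 libraries, which was also a condition for naming the gene. The edgeR log2 fold change was -2.06 ± 0.21 (SE), with an adjusted p of 0.00358. Fabp7 kept the call in every leave-out, with adjusted p-values of 0.00199 to 0.0235, and members had the lower level in each library. Removing the highest cell of each library gave a log2 fold change of -1.94. The call was lost with at least 3 inhibitory genes (-1.81, adjusted p 0.0794), in thinned cells (-1.66, 0.0591) and without the library block (0.373).

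Other lower genes were of several kinds. Gli3, a transcription factor of the Sonic hedgehog pathway, had a log2 fold change of -2.30 (edgeR adjusted p 0.0134, and 0.0871 without P10 cKO), and Notch1 one of -2.21 (0.0276, lost in every leave-out but that of P14 WT, at most 0.143 without P10 WT). Ptf1a, the master factor of the inhibitory lineage, was at 9.76, 2.91, 1.497 and 5.34 CPM in members against 38.0, 37.8, 2.52 and 23.7 CPM, with a log2 fold change of -2.45 and an edgeR adjusted p of 0.0358 that was lost without P10 WT (0.148), P10 cKO (0.123) and P14 cKO (0.0792). The NMDA receptor subunit gene Grin3a had a log2 fold change of -1.81 (edgeR adjusted p 0.0128, 0.0246 to 0.0403 over the leave-outs), but -0.069 with at least 3 inhibitory genes (adjusted p 0.995). Apoe and Vim, both astroglial, were also lower, at -1.97 and -1.5, and Apoe lost the call without P14 WT (0.0567) and P14 cKO (0.0755). In the class without Pax2, a single cell held at least 50% of the UMIs of Vtn and of Col3a1 in every library, and for both genes the call was lost without the highest cell (edgeR adjusted p 0.653 and 0.971). Of the gene lists, 2 of 10 lineage transcription factors tested (Ptf1a among them) were lower and none higher (median log2 fold change -0.77), where 0.499% of all genes were lower. Lower calls were also 2 of 12 Atf4 and amino acid genes (median -0.21), and 1 each of 11 Sonic hedgehog (-1.002), 8 Notch (-0.66), 15 S phase (-0.74), 14 glutamate receptor (-0.25), 15 channel (-0.02), 19 guidance (-0.21) and 12 molecular layer interneuron genes (-0.21). On the other side, 1 of 20 immature neuron genes (Sox11) was higher (median 0.19), with a median of -0.01 over all genes. Astroglial markers summed to 756.1 to 954 CPM in the cells without Pax2 and 321 to 511 CPM in members. Markers of other types were also higher in the cells without Pax2: red blood cell genes in P10 WT (12150 against 4079 CPM), fibroblast genes at P14 (343 against 12.7 in WT and 326 against 62.5 in cKO) and endothelial and mural genes at P14 (167 against 23.2 and 332 against 34.5). The 56 lower calls held 4 haemoglobin genes. The part of these cell types in the differences was not tested.

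**Figure D5:**
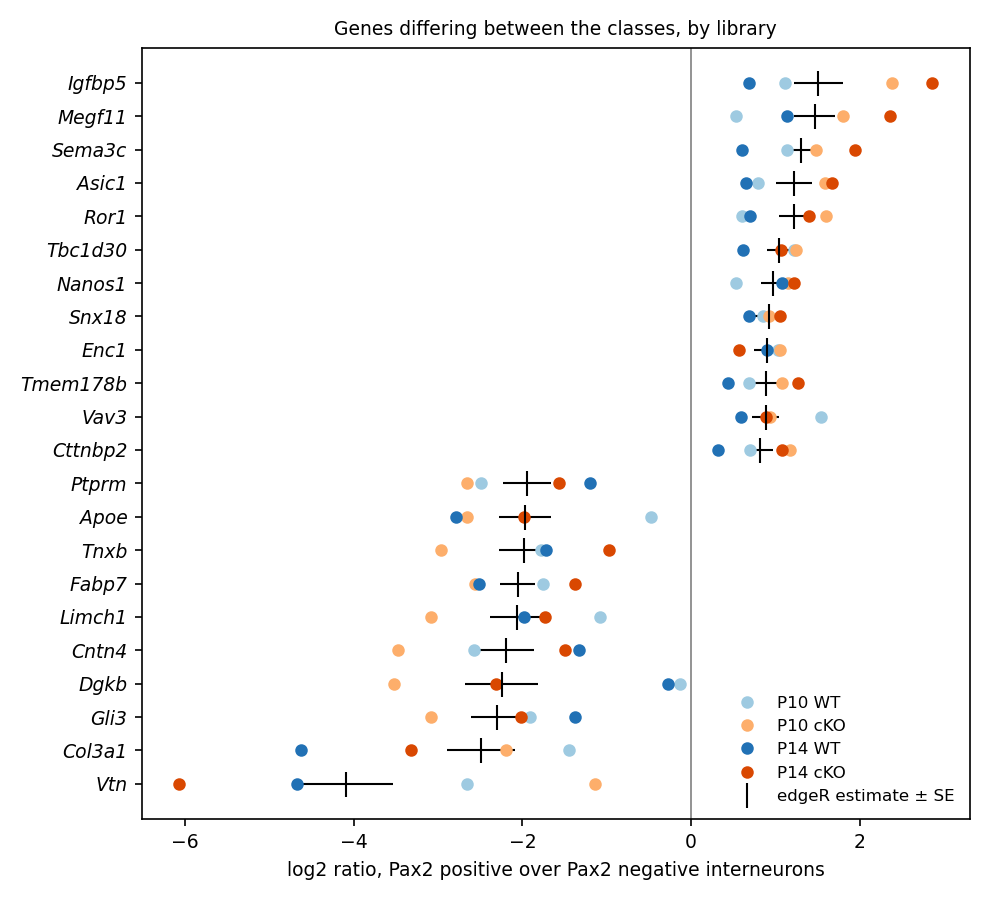
Log2 ratio of Pax2 positive over Pax2 negative inhibitory cells (x axis) for genes chosen by the naming rule (y axis), with 1 point per library and the edgeR estimate ± SE as a black mark. Points of all 4 libraries lie on the same side of 0 for each gene, which the naming rule required. The estimates run from Vtn (-4.09) to Igfbp5 (1.51).

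The genotypes were compared within members. No gene of 12660 passed edgeR's quasi-likelihood test over both ages (0.0%), with 189 at an unadjusted p under 0.05. DESeq2 called 2, which were looked up after the values were seen: the Y-linked Uty, higher in cKO, and the choroid plexus gene Ttr, lower. This fit has 1 residual degree of freedom, and on simulated data of 12341 genes it recovered 7% of 4-fold and 34% of 8-fold changes, so it could miss most changes of that size. The difference of the genotype effect between members and the cells without Pax2 was called for none of 11218 genes (0.0%; 383 at an unadjusted p under 0.05; 0 by DESeq2), and leaving out P10 cKO gave 34 calls. No genotype difference below was shown to be particular to members.

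At P14, where both libraries share a program version, most genes of members were at like levels, with a median log2 ratio of cKO over WT of 0.00 and a middle range of -0.15 to 0.17. By a rule of size (at least 50 UMIs over both libraries, at least 2-fold, interval away from 0), 226 of 10566 genes were past 2-fold (2.14%), 183 higher in cKO (1.73%) and 43 lower (0.407%). In 18 of the 183 and 3 of the 43, a single cell held at least 50% of the UMIs. Of the 183, 142 were also higher in the other cells of P14 cKO than of P14 WT, as 31 of the 43 were lower there.

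Genes of transmitter handling and of the lineage that had the 50 UMIs of the rule of size were within 2-fold at P14. Over all genes 2.14% were past 2-fold, so a short list without such a gene is common. All 9 genes that handle GABA and glycine were within 2-fold, and their median log2 ratio was -0.09. Gad1, Gad2, Slc32a1 and Slc6a5 of this list belong to the rule, as do Pax2, Tfap2b and Lhx5 of the lineage list. Their levels are therefore a description. Gad1 gave -0.08 (-0.17 to 0.01), Slc32a1 -0.36 (-0.56 to -0.16) and Slc6a5 -0.23 (-0.37 to -0.09). The 9 lineage transcription factors with 50 UMIs were also within 2-fold (median 0.15 over 13 with 20 UMIs), with Pax2 at 0.15 (0.06 to 0.24) and Tfap2a at 0.34 (0.18 to 0.49). Of the 4 with fewer UMIs, Ptf1a had a log2 ratio of 1.69 (0.34 to 3.79) and Neurod6 one of 1.64. Nor was any gene past 2-fold among the 20 immature neuron genes (median -0.06), 11 molecular layer interneuron genes, 8 GABA-A receptor subunits, 14 glutamate receptor subunits, 17 presynaptic genes (0.05) and 14 voltage-gated channels with 50 UMIs. Gria1, an AMPA receptor subunit gene with too few UMIs for the rule, had 37 UMIs in P14 WT and 4 in P14 cKO (log2 ratio -4.23, -6.33 to -2.90), and 1 cell held 62.2% of those in P14 WT. Over those with 20 UMIs, the medians were -0.11 (12 interneuron genes), 0.03 (11 GABA-A), -0.11 (15 glutamate) and -0.10 (15 channels), beside a median of 0.01 over all 12504 genes with 20 UMIs. Stress lists were also near it, with medians of 0.07 for 12 p53 targets and 0.07 for 11 Atf4 and amino acid genes. None of the 8 U5 snRNP protein genes was past 2-fold (median 0.26), nor any of 17 neuronal splicing regulators (median -0.15).

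Among the genes past 2-fold higher in cKO at P14, Lhx9 (chromosome 1, 138825186 to 138848577, minus strand), a transcription factor of early cerebellar nuclei neurons, was at 3.08, 5.40, 3.37 and 30.02 CPM in members. Its UMIs came from 5 of 327 P14 WT members and 93 of 439 P14 cKO members, where the highest cell held 3.33% of them, and the log2 ratio was 3.08 (2.20 to 4.31). In all other cells Lhx9 was at 0.179, 0.332, 0.0633 and 1.66 CPM. P14 cKO was thus the high library in both, and the members of the other 3 lay between 3.08 and 5.40 CPM. The ratio was 3.71 without granule lineage RNA and 2.17 in thinned cells.

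Of 14 interferon response genes with at least 20 UMIs, 13 had a P14 ratio above 0 in members, beside 6409 of 12504 genes in all, with a median log2 ratio of 1.41. Of the 7 with 50 UMIs, 3 were past 2-fold (B2m and Ifitm3 among them), beside 2.14% of all genes. B2m, the light chain of MHC class I, was at 39.04, 13.8, 9.73 and 25.7 CPM, highest in P10 WT and lowest in P14 WT, with a P14 log2 ratio of 1.38 (0.79 to 2.06) in members and 1.22 in other cells. Its interval reached 0 in thinned cells (0.89) and without granule lineage RNA (0.81). Usp18 and Oasl2 had 27 and 25 UMIs in P14 cKO and none in P14 WT, at least 4.01-fold and 3.71-fold higher against a floor of 3 UMIs in the library. The same list summed to 670 CPM in the other cells of P14 WT and 1450 CPM in those of P14 cKO. The 12 microglial markers in members summed to 127, 42.2, 32.6 and 68.7 CPM, the same order of libraries as for B2m, and their part in the result was not tested.

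Immediate early genes, which neurons induce on stimulation and tissue dissociation, were uneven. The list counts of this paragraph stand beside 2.14% of all genes past 2-fold at P14, and 6409 of 12504 with a ratio above 0. Of 11, 8 had a P14 ratio above 0 (median 0.38), and of the 10 with 50 UMIs, Egr1 (471, 141, 113 and 249 CPM) and Fos (252, 56.8, 128 and 264 CPM) were past 2-fold at log2 1.14 (0.96 to 1.32) and 1.05 (0.88 to 1.22). Neither was past 2-fold without granule lineage RNA (0.28 and -0.43). In the other cells their P14 log2 ratios were 0.54 and 0.49. Of 4 Golgi cell genes with 50 UMIs, Sst (3.596, 4.02, 6.36 and 13.2 CPM) and Gjd2 (7.19, 5.12, 3.37 and 7.34 CPM) were past 2-fold, at 1.02 (0.28 to 1.90) and 1.06 (0.07 to 2.34), and without doublets both intervals reached 0 (log2 ratios 0.73 and 0.96). Of 20 guidance receptors with 50 UMIs, Nrp1 was past 2-fold (8.24 and 17.2 CPM at P14), and the netrin receptor gene Dcc was at 556, 11225, 5685 and 10080 CPM, a P14 log2 ratio of 0.83 in members against -0.42 in other cells.

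Several of the largest P14 ratios concerned genes of other cell types. The oligodendrocyte genes Cldn11 (log2 ratio 4.09) and Mobp (2.75) were at 0.374 and 3.37 CPM in P14 WT members and 9.51 and 23.8 CPM in P14 cKO. In other cells the same genes had log2 ratios of 1.98 and 2.41. Fat2, a granule cell cadherin, had a log2 ratio of 3.11 in members and 1.68 in other cells. Cntn5 (2.70) and Arhgap24 (2.85) rested on single cells that held 80.9% and 69.6% of their P14 cKO UMIs, and Cntn5 gave -0.054 in thinned cells. Ttr was at 10.8, 0, 1171 and 5.67 CPM in members, with a log2 ratio of -7.67, and at 1476 and 5.95 CPM in P14 microglia.

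Of the genes chosen by the naming rule, lower in cKO at P14 was Clmp, a cell adhesion molecule, at 128, 123, 83.5 and 33.4 CPM, a log2 ratio of -1.32 (-1.61 to -1.04). P14 cKO was the low library, and in other cells the ratio was -0.53. It was -0.88 in thinned cells. Sfrp1, a secreted Wnt antagonist, was at 93.5, 31.6, 27.7 and 9.17 CPM with a log2 ratio of -1.59 (-2.13 to -1.07), against -0.60 in other cells. Without granule lineage RNA its sign turned (2.97, from -1.11), and the interval of the thinned cells (-0.99) reached 0. The granule lineage factor Barhl2 had a log2 ratio of -1.23 and Tbata one of -1.36, beside -0.43 and -0.58 in other cells.

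The cKO libraries also gave members at 2 ages with like intron content, though with different program versions (7.0.1 and 7.1.0). From P10 to P14, 499 of 11536 genes were past 2-fold (4.33%), 242 higher at P14 (2.1%) and 257 lower (2.23%). In the other cells, 224 of the 242 and 165 of the 257 differed in the same direction, so most of these differences were not confined to members.

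Receptor genes differed unevenly between the ages in cKO members, where 4.33% of all genes were past 2-fold. Of 11 GABA-A receptor subunits, 9 had a P14 over P10 ratio above 0 (median log2 ratio 0.67), and of the 8 with 50 UMIs, Gabra2 was past 2-fold, at 58.7 CPM at P10 and 124 CPM at P14 (1.07, 0.90 to 1.25). Glra2, a glycine receptor subunit of immature neurons, was at 7.48 and 22.5 CPM (1.58), the metabotropic glutamate receptor Grm5 at 10.9 and 25.8 CPM (1.24), and the NMDA receptor subunit Grin2a at 1.66 and 6.84 CPM (2.0). These 4 genes were higher at P14, but the 16 glutamate receptor subunits split evenly, 8 above and 8 below 0 (median 0.12). The potassium channel Kcnd2 was at 72.3 and 204 CPM (1.5), with a log2 ratio of 1.13 in other cells, and the adhesion protein Cntnap2 at 222 and 479 CPM (1.11). Gria1, lower at -3.76, rested on 1 cell that held 94.5% of its P10 cKO UMIs.

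Cell cycle genes were lower at P14. All 16 S phase genes and all 16 G2 and M phase genes with enough UMIs had cKO ratios of P14 over P10 below 0 (medians -0.49 and -0.96), and 2 and 5 of them were past 2-fold. Top2a was at 93.5 and 40.7 CPM (-1.20, -1.42 to -0.99) and Mki67 at 56.6 and 29.2 CPM (-0.95). In other cells their log2 ratios were -0.95 and -0.85. Of 11 Sonic hedgehog pathway genes, 9 had a ratio below 0 (median -0.60), and Gli2 was past 2-fold, at 27.3 and 8.84 CPM (-1.62). Ccnd2 was at 487 and 239 CPM (-1.03). The median over all genes was 0.00, and 2.23% of them were past 2-fold lower.

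The comparisons that involve P10 WT are given for completeness. In members, 3033 of 10769 genes were past 2-fold between P10 cKO and P10 WT (28.2%; 21.9% higher and 6.25% lower), and 2493 of 9060 between P14 WT and P10 WT (27.5%; 19.4% and 8.09%), several times the shares of the other 2 comparisons. Rora, which has long introns, was at 113 CPM in P10 WT members and 8464, 9799 and 8193 CPM in the other libraries. Lhx1, with short introns, was at 307, 225, 136 and 144 CPM.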

How the data were processed

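Cerebellar cells of 4 mouse groups were profiled as 1 10x library each. The deposited matrices hold counts of UMIs per gene and cell barcode; the Cell Ranger version differed between them, per the file headers (7.1.0 at P14, 7.0.1 and 5.0.0 for cKO and WT at P10). Version 3.0.2 of that program stands in the submitters' processing notes, beside Seurat 4.1.3 and the mm10 build, and whether introns were counted is not given in the sources used here. Coordinates are those of GRCm38 (mm10). The labels do not say whether a library pooled animals.

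Cells with at least 500 genes and at most 20% mitochondrial UMIs were kept, with no clustering. Doublets (Scrublet score of 0.25, scanpy 1.11.5) were kept and removed in an alternative. UMIs were summed per library over members, over cells meeting the same rule without Pax2, and over all other cells. Sums were tested with edgeR 4.0.16 (quasi-likelihood, TMM, filterByExpr with a minimum count of 10, adjusted p of 0.05) for Pax2 positive against negative cells with library as a block, for genotype with age as a term, and for their interaction; p-values measure the spread between these libraries only. Single ages were compared by log2 ratios with 0.5 UMI added and exact conditional 95% intervals. Shares have exact Clopper-Pearson intervals. For shares and dividing cells, each cell was thinned to 2000 UMIs and shallower cells left out.

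Named genes were the 12 highest and 12 lowest fold changes among class calls of 1 sign in 4 libraries with 50 CPM in a class, the 10 highest and 10 lowest P14 ratios whose P10 ratio had the same sign, the most abundant and called genes of 21 lists, and a fixed set of interneuron genes; a few of them are not reported here. Members and lists were chosen with earlier results of these data known. Each test was tested on simulated data with 200 changed genes: for class, genotype and interaction, 98%, 7% and 52% of 4-fold changes were recovered over 10701, 12341 and 10663 genes. Alternatives were DESeq2 1.42.0, other size factors, no filter, other member rules, thinned cells, no block and leaving out each library.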

Additional observations from a re-analysis of the deposited data

Results flagged for a closer look

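For 3 genes the members' cKO over WT log2 ratio had opposite signs at the 2 ages. B2m, the light chain of MHC class I, stood at 1.38 at P14 and -1.498 at P10. The immediate early genes Egr1 and Fos stood at 1.14 and 1.05 at P14 and at -1.74 and -2.15 at P10. The difference between ages was not tested, as each value compares 1 library with 1 library. The P10 ratios share the difference in program version and intron content, which cannot be told apart from genotype.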

How the results depend on the processing

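The count of 74 genes differing between Pax2 positive and negative cells became 137 with DESeq2, 646 with no filter, 127 without doublets, 37 with at least 3 inhibitory genes, 4 without granule lineage RNA (4417 genes tested), 179 with at least 2 Pax2 UMIs and 0 without the library block, and ranged from 30 (without P14 cKO) to 88 (without P14 WT) over the leave-outs. Without granule lineage RNA, only 25, 9, 47 and 17 Pax2 negative cells remained. The 0 genotype calls became 2 with DESeq2 and 71 with no filter. The 0 interaction calls became 25 with no filter and ranged from 0 to 34 over the leave-outs. The genotype fit without a library has 0 residual degrees of freedom and was not run. For the genotype comparisons, no paired analysis was possible because the labels give no replicate numbers; the class comparison is paired by its library block.

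The P14 share ratio of 3.28 was 1.47 without granule lineage RNA and 1.12 among inhibitory cells. The P10 ratio of 6.24 was 7.54 with at least 3 inhibitory genes, 9.41 without granule lineage RNA, 11.2 in thinned cells, 8.97 with at least 2 Pax2 UMIs and 1.31 among inhibitory cells. All of these P10 ratios involve P10 WT, with its difference in program version and intron content. The 226 genes past 2-fold at P14 became 74 without granule lineage RNA, 52 in thinned cells and 455 with a minimum of 20 UMIs.

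Signs turned in the class fit for Asic1 (-0.11 without granule lineage RNA) and for Nxph1 and Kcnd2 (0.084 and 0.29 with at least 3 inhibitory genes). At P14 they turned without granule lineage RNA for Limch1 (-1.71), Tnxb (-0.66), Rnf213 (-1.42), Tnfaip8 (0.16), Zfp36l1 (0.16), Sfrp1 (2.97) and Fos (-0.43). In thinned cells they turned for Cntn5 (-0.054), Tnfaip8 (2.92) and Zfp36l1 (0.35), and without doublets for Fxyd1 (0.38). The cause was not tested; without granule lineage RNA 121 and 73 members remained at P14. The settings that removed the highest cell of each gene were chosen after seeing the data.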
